A study of Mus musculus with 18 samples.

Results

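The azurophil granule genes described here are Mpo, Elane, Prtn3, Ctsg, Prss57 and Ms4a3, taken by symbol from a table of raw read counts that held 24062 gene symbols. All 6 were in the table, and all 6 were among the 12859 genes that passed the filter on low counts. The libraries came from mouse haematopoietic progenitor cells that carry Rosa-CreERT, a Cre recombinase switched on by tamoxifen, and that had been immortalized with MLL-AF9, a leukaemia fusion protein delivered by retrovirus to lineage-negative bone marrow cells. RNA was taken 48 h after treatment, and the comparison of interest was the loss of the RNA helicase gene Ddx41. The 6 groups had 3 libraries each, lettered A, B and C. FF_4OHT cells were Ddx41 flox/flox and received 1 µM 4-hydroxytamoxifen (4OHT), and FF_EtOH cells were flox/flox and received ethanol. Het_4OHT and Het_EtOH cells carried 1 floxed and 1 wild-type Ddx41 allele, and WT_4OHT and WT_EtOH cells carried wild-type alleles only. MLL-AF9, Rosa-CreERT and growth in IL-3, SCF and IL-6 were common to all groups, the ethanol groups included. Neither the number of lines per genotype nor the origin of the letters A, B and C is stated in the labels. Genotype therefore cannot be told apart from line, and p-values cover only the library-to-library spread, which may be technical.

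Azurophil, or primary, granules are the first granules that a neutrophil precursor makes, at the promyelocyte stage. Their main contents are myeloperoxidase, which makes hypochlorous acid from hydrogen peroxide and chloride, and the neutral serine proteases, which are stored active after cathepsin C has cut off a short propeptide. The genes are switched on in granulocyte-monocyte progenitors by factors such as PU.1, C/EBPalpha, MYB and RUNX1, and they are switched off before the secondary granules form.

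Each library held between 24730213 and 49277884 counts, of which 0.58% to 1.43% fell on the 6 genes. Levels are given as CPM, counts relative to the library size after edgeR's TMM scaling. Ddx41 was at 14.6 to 17.7 CPM in FF_4OHT libraries, against 73.7 to 111.8 CPM in FF_EtOH libraries, at 41.3 to 58.4 CPM in Het_4OHT, against 68.0 to 79.1 CPM in Het_EtOH, and at 75.5 to 93.0 CPM in WT_4OHT, against 80.1 to 89.6 CPM in WT_EtOH. A pair of libraries went against the line they are labelled for. In the library labelled FF_EtOH C the Y-linked gene Eif2s3y stood at 86.3 CPM, where every other FF library had 0 counts. The other WT libraries had 66.4 to 100.9 CPM of it, against 0 counts for the library labelled WT_4OHT C. The main comparisons that use either library are also given without both. Eif2s3y stood at 70.9 to 87.8 CPM in the Het libraries. Apart from that pair, FF libraries thus differed from WT and Het libraries in this Y-linked gene as well. The part of that difference in the results was not tested. The ribosomal precursor Rn45s stood at 18290 CPM in FF_4OHT B, 41160 CPM in FF_4OHT C and 14900 CPM in Het_4OHT A, and its part in the results was not tested. Of 6 general blood cell markers, all were detected in every group, and the haemoglobin genes Hba-a1, Hba-a2, Hbb-bs and Hbb-bt had 0 counts in every group.

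The proteases were among the most abundant transcripts of these cells. Elane, neutrophil elastase, ranked between 2 and 18 of all genes by group mean CPM, Prtn3, proteinase 3, between 10 and 38, and Ctsg, cathepsin G, between 23 and 68. Ms4a3, a membrane-spanning protein of granulocyte-monocyte progenitors, ranked between 81 and 193. Prss57, a further neutrophil serine protease, ranked between 2841 and 6837. Mpo ranked 432 in FF_4OHT cells, 50 in FF_EtOH cells, 2862 in Het_4OHT cells, 2009 in Het_EtOH cells, 16 in WT_4OHT cells and 9 in WT_EtOH cells. Per kilobase of exon, Elane was the highest of the 6 in every group, at 2202 ± 75.2 CPM per kb in FF_4OHT, 3941 ± 800.4 in FF_EtOH, 3344 ± 1834 in Het_4OHT, 3447 ± 712.9 in Het_EtOH, 4254 ± 552.7 in WT_4OHT and 4432 ± 448.8 in WT_EtOH (SD, n = 3 each).

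In GENCODE M21 on GRCm38, Prss57, Prtn3 and Elane lie together on chromosome 10. Prss57 lies at chr10:79781474-79790961 on the minus strand, Prtn3 at chr10:79874476-79883174 and Elane at chr10:79886247-79888215, both on the plus strand, with 3072 bases between the last pair. Mpo lies at chr11:87793581-87804413 on the plus strand, Ctsg at chr14:56099881-56102574 and Ms4a3 at chr19:11629496-11640851, both on the minus strand. Exons of Mpo share 512 bases with the antisense gene Gm11505, those of Prtn3 share 159 bases with Plppr3, and those of Prss57 share 1157 bases with Fstl3, each on the other strand. The strand setting of the counting is not given in the sources used here, so reads in these stretches cannot be assigned with certainty.

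RefSeq promoters (GRCm38.p6) were matched for 5 of the 6 genes, Mpo, Elane, Prtn3, Ctsg and Ms4a3. The stretches below are shown because they hold a shared word, AGGAAGT, which is of the kind that ETS factors such as PU.1 bind. They are the bases upstream of the RefSeq start that fall in no GENCODE exon, on the gene's strand, with AGGAAGT in capitals. Mpo is chr11:87793534-87793580, plus strand, Elane is chr10:79886062-79886246, plus strand, Prtn3 is chr10:79879417-79879613, plus strand, and Ctsg is chr14:56102575-56102824, minus strand. The Prtn3 stretch lies in an intron of the GENCODE gene, whose annotated start is further upstream. The Mpo and Elane stretches end at the start of the GENCODE gene, 203 and 65 bases before the RefSeq start. Distances below count from the RefSeq start.
Mpo: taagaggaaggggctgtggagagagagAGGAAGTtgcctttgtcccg
Elane: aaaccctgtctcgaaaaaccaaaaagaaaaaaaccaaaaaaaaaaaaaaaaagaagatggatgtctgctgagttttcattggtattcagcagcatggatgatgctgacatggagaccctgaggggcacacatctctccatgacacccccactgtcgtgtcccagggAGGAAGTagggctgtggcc
Prtn3: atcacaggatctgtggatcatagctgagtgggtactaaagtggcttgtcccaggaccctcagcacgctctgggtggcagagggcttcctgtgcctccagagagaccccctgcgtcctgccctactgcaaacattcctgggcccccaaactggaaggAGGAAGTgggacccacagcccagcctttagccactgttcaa
Ctsg: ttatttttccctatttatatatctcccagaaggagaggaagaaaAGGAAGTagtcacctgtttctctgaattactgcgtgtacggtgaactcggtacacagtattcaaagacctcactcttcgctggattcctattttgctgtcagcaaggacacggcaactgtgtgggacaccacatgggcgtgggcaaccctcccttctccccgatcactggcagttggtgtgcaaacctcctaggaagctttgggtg
The word was looked for on both strands of the 250 bases upstream of the start and stood on the coding strand in these 4 of the 5 windows, starting 223 bases upstream in Mpo, 84 in Elane, 94 in Prtn3 and 206 in Ctsg. It was in 7.69% of 32851 such windows in RefSeq. In Elane and Prtn3 the same order followed downstream, mostly past the end of the stretches printed, with a MYB-type word (CAACNG, 29.3% of windows) at 51 and 56 bases and a TATA-type word (TATAAN, 22.7% of windows) at 31 and 32 bases. Ctsg held CAACNG at 93 bases and, on the other strand, CAACNG at 36 and TATAAN at 237 bases. Ms4a3 held none of these 3 words and had the only match to the C/EBP-type word TTNNGNAA (36.8% of windows), and Ctsg had the only match to the RUNX-type word TGTGGT (14% of windows). No word overlapped another in these windows. The words were picked after the sequences had been seen, and a match is not a measured site.

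**Figure D1:**
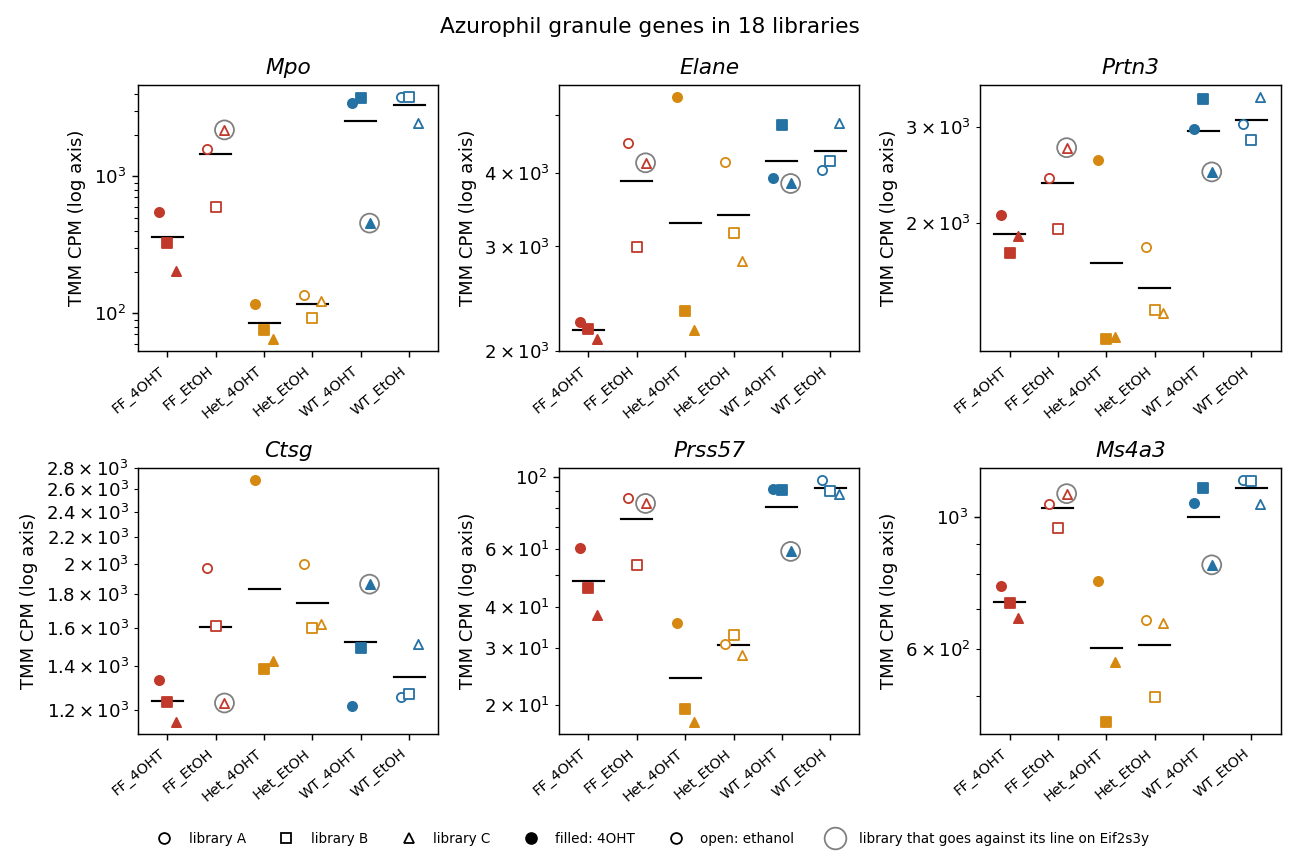
Level of each azurophil granule gene in each library, in TMM CPM on log axes whose ranges differ between panels. Filled points are 4OHT libraries, open points are ethanol libraries, shapes are the library letters, the line is the mean of 3 and grey rings mark the libraries labelled WT_4OHT C and FF_EtOH C. The FF_4OHT libraries lie below the FF_EtOH libraries for Mpo, Elane and Ms4a3, and Mpo spans 64.8 to 3790 CPM over the 18 libraries.

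Of the 6 genes, Mpo fell in FF_4OHT cells against FF_EtOH cells, to 24.6% of the ethanol level, and the other 5 did not pass the test. Mpo had 548.4, 323.7 and 204.6 CPM in FF_4OHT A, B and C, against 1594, 600.5 and 2181 CPM in FF_EtOH A, B and C. Every FF_4OHT library was below every FF_EtOH library, although the highest 4OHT value and the lowest ethanol value were close. The log2 fold change was -2.02 ± 0.60 (SE; edgeR quasi-likelihood test, Benjamini-Hochberg adjusted p = 0.0346 over all 12859 genes). The count of 1 in 6 called lower stands beside 8.29% of all tested genes, and beside 13.4% called in either direction. In bulk RNA, fewer cells of a type and less RNA per cell cannot be told apart. Without the libraries labelled WT_4OHT C and FF_EtOH C the change of Mpo was -1.61 ± 0.41 with an adjusted p of 0.0205 (edgeR). The call was lost when 1 library was left out in 4 of 6 cases, at adjusted p = 0.0796 without FF_EtOH A, 0.116 without FF_EtOH C, 0.112 without FF_4OHT B and 0.161 without FF_4OHT C (edgeR), with log2 changes between -2.47 and -1.61 over the 6 cases.

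Elane and Ms4a3 lay just short of the threshold. Elane had 2239, 2172 and 2091 CPM in FF_4OHT libraries, against 4488, 2989 and 4157 CPM in FF_EtOH libraries. The treated libraries were tight and all below the ethanol libraries, with a log2 fold change of -0.84 ± 0.27 and an adjusted p of 0.0514 (edgeR). Ms4a3 had 765.3, 716.7 and 676.4 CPM in FF_4OHT libraries, against 1052, 958 and 1093 CPM in FF_EtOH libraries, again with no overlap. Its log2 fold change was -0.52 ± 0.17 with an adjusted p of 0.0544 (edgeR). Non-overlap with the treated libraries lower was seen for Mpo, Elane and Ms4a3, 3 of 6 genes, and for 21.5% of all tested genes, or 40.2% with non-overlap in either direction.

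The remaining proteases overlapped between the FF groups. Prss57 had 60.6, 45.7 and 37.9 CPM in FF_4OHT libraries, against 85.8, 53.6 and 82.7 CPM in FF_EtOH libraries, a log2 difference of -0.62 ± 0.25 (edgeR adjusted p = 0.116). Ctsg had 1333, 1232 and 1150 CPM in FF_4OHT libraries, against 1973, 1608 and 1228 CPM in FF_EtOH libraries, a log2 difference of -0.37 ± 0.23 (edgeR adjusted p = 0.327). The lowest ethanol value of Ctsg was that of the library labelled FF_EtOH C. Prtn3 had 2071, 1764 and 1893 CPM in FF_4OHT libraries, against 2413, 1953 and 2748 CPM in FF_EtOH libraries, a log2 difference of -0.31 ± 0.24 (edgeR adjusted p = 0.429). All 6 log2 differences were below 0, with a median of -0.57, beside a median of -0.02 over all tested genes. Without the doubted pair of libraries Elane gave -0.79 ± 0.31, Prss57 -0.54 ± 0.26, Ctsg -0.53 ± 0.24, Ms4a3 -0.48 ± 0.19 and Prtn3 -0.19 ± 0.26, and none of these 5 was called (edgeR adjusted p = 0.116, 0.206, 0.161, 0.107 and 0.683).

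None of the 6 genes passed the test for 4OHT in Het or WT cells. In Het_4OHT against Het_EtOH, 0 of 6 were called by edgeR, beside 0.0156% of all tested genes, 0 had an unadjusted p under 0.05, and 0 were called by DESeq2 or limma voom. In WT_4OHT against WT_EtOH the counts were likewise 0 of 6 by all 3 tools and 0 at an unadjusted p under 0.05, beside 0% of all tested genes called. The groups overlapped for every one of the 6 in both lines, beside 4.95% of all tested genes without overlap in Het cells (2.23% higher, 2.71% lower) and 4.82% in WT cells. The 95% interval of the log2 change of Mpo ran from -1.68 to 0.77 in Het cells and from -1.62 to 0.82 in WT cells, and that of Elane from -0.62 to 0.53 in Het cells and from -0.63 to 0.51 in WT cells. Elane had 5372, 2332 and 2167 CPM in Het_4OHT libraries, against 4178, 3167 and 2830 CPM in Het_EtOH libraries. Mpo had 115.9, 75.4 and 64.8 CPM in Het_4OHT libraries, against 136.1, 92.4 and 122.9 CPM in Het_EtOH libraries. Het_4OHT B and C were below every Het_EtOH library for Mpo, Elane, Prtn3, Ctsg and Prss57. Het_4OHT A stood above its whole line for Elane, Prtn3, Ctsg, Prss57 and Ms4a3. Without that library and the libraries labelled WT_4OHT C and FF_EtOH C, the log2 differences of Prtn3 and Ctsg in Het cells were -0.31 and -0.32, against 0.15 and 0.07 with all libraries, and none was called (edgeR adjusted p = 1 each). In WT cells, Mpo had 3413, 3739 and 455 CPM in WT_4OHT libraries, against 3790, 3779 and 2441 CPM in WT_EtOH libraries. The low value is that of the library labelled WT_4OHT C, and without the pair of doubted libraries the log2 difference of Mpo was 0.10, against -0.40 with them.

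The difference between the responses was tested directly and did not pass for any of the 6 genes, so the response of the FF cells is not shown to differ from the others. For the FF response minus the WT response, Mpo gave -1.63 ± 0.82 (edgeR adjusted p = 0.362) and Elane -0.78 ± 0.38 (edgeR adjusted p = 0.349), with 0 of 6 genes called beside 2.3% of all tested genes (1.89% lower). For the FF response minus the Het response, Mpo gave -1.57 ± 0.82 (edgeR adjusted p = 0.367), Elane -0.80 ± 0.38 (edgeR adjusted p = 0.317) and Ms4a3 -0.50 ± 0.24 (edgeR adjusted p = 0.319), with 0 of 6 called beside 2.5% of all tested genes (2.09% lower). For the Het response minus the WT response 0 of 6 were called, beside 0% of all tested genes. In these 3 comparisons 0 of the 6 genes had an unadjusted p under 0.05, and 0 were called by DESeq2 or limma voom. Without the doubted pair 0 of 6 were called in each of the 3 by edgeR, and Mpo gave -1.71 ± 0.57 for FF minus WT (edgeR adjusted p = 0.173, unadjusted p = 0.0095) and -1.15 ± 0.55 for FF minus Het (edgeR adjusted p = 0.291).

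**Figure D2:**
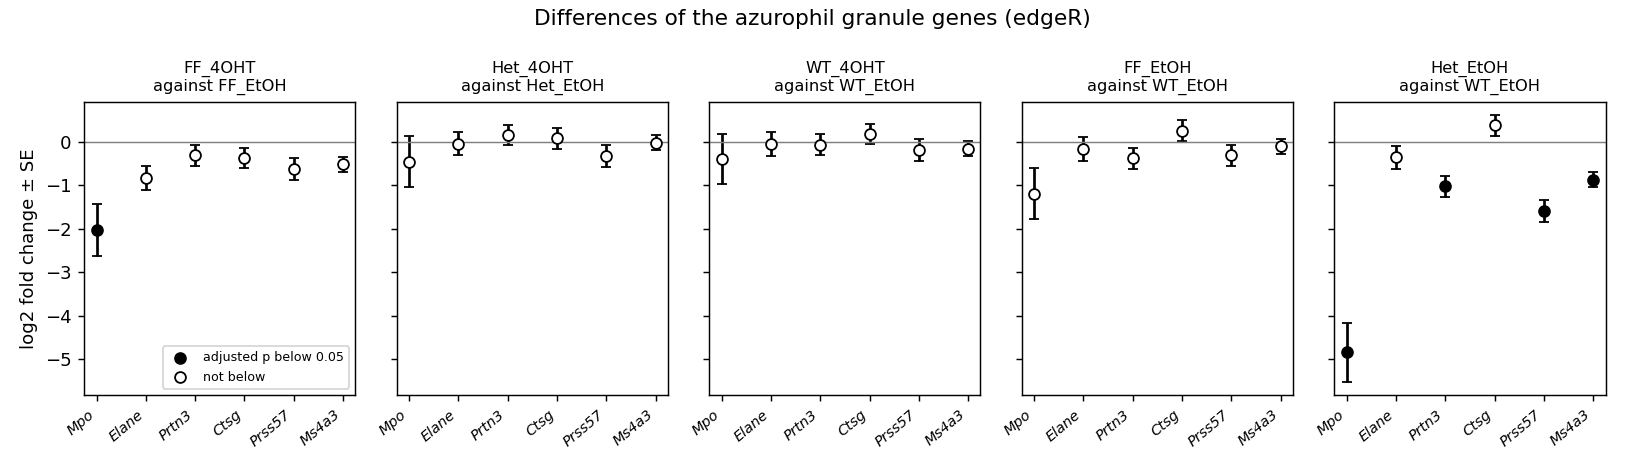
log2 fold change of each azurophil granule gene in 5 comparisons, with bars of 1 standard error from edgeR. Filled points have an adjusted p below 0.05. In the FF panel Mpo is filled at -2.02 and the other 5 are open, the Het and WT response panels and the FF_EtOH against WT_EtOH panel have no filled point, and in Het_EtOH against WT_EtOH 4 genes are filled, with Mpo at -4.83.

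Ethanol-treated cells of different genotype were compared next. In Het_EtOH cells 4 of the 6 genes were lower than in WT_EtOH cells, beside 10.4% of all tested genes called lower and 23.7% called in either direction, and the order from the largest difference was Mpo, Prss57, Prtn3 and Ms4a3. Mpo had 136.1, 92.4 and 122.9 CPM in Het_EtOH libraries, against 3790, 3779 and 2441 CPM in WT_EtOH libraries. The groups were far apart, with Het_EtOH at 3.51% of the WT_EtOH level and a log2 fold change of -4.83 ± 0.67 (edgeR adjusted p = 0.000101). Prss57 had 30.8, 32.7 and 28.5 CPM in Het_EtOH libraries, against 97.8, 90.5 and 88.4 CPM in WT_EtOH libraries, a log2 fold change of -1.59 ± 0.26 (edgeR adjusted p = 0.000351). Prtn3 had 1809, 1384 and 1365 CPM in Het_EtOH libraries, against 3033, 2844 and 3403 CPM in WT_EtOH libraries, a log2 fold change of -1.03 ± 0.24 (edgeR adjusted p = 0.00531). Ms4a3 had 669.2, 496.7 and 662.5 CPM in Het_EtOH libraries, against 1154, 1147 and 1049 CPM in WT_EtOH libraries, a log2 fold change of -0.87 ± 0.17 (edgeR adjusted p = 0.00154). None of these 4 overlapped between the groups, beside 22.8% of all tested genes with Het_EtOH lower and no overlap, and 45.3% with none in either direction.

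Elane and Ctsg did not follow in the Het cells. Elane had 4178, 3167 and 2830 CPM in Het_EtOH libraries, against 4036, 4183 and 4863 CPM in WT_EtOH libraries, with overlap and a log2 difference of -0.36 ± 0.27 (95% interval -0.94 to 0.21, edgeR adjusted p = 0.377). Ctsg had 2004, 1600 and 1621 CPM in Het_EtOH libraries, against 1253, 1268 and 1513 CPM in WT_EtOH libraries. The Het values were all higher, and the log2 difference of 0.37 ± 0.23 did not pass (95% interval -0.12 to 0.87, edgeR adjusted p = 0.284).

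The next comparisons share the WT_EtOH or Het_EtOH libraries with those just given. In FF_EtOH against WT_EtOH cells 0 of 6 genes were called by edgeR, beside 0% of all tested genes, 0 had an unadjusted p under 0.05, and 0 were called by DESeq2 or limma voom. Mpo was lower in every FF_EtOH library than in every WT_EtOH library, as given above, with a log2 difference of -1.19 ± 0.58 (edgeR adjusted p = 0.906). Prtn3 and Prss57 did not overlap either, so that 3 of 6 genes were lower without overlap, beside 4.95% of all tested genes (4.11% higher, 9.07% in either direction). Without the libraries labelled WT_4OHT C and FF_EtOH C the log2 difference of Mpo was -1.61 ± 0.43, and Mpo was called (edgeR adjusted p = 0.0489). Calls over all genes rose too in that fit, to 614 of 13041 tested. Against Het_EtOH cells, 3 of the 6 genes were higher in FF_EtOH cells, beside 7.74% of all tested genes called higher and 9.04% called lower. Mpo was at 1458 ± 798.6 CPM in FF_EtOH cells and 117.1 ± 22.4 CPM in Het_EtOH cells (SD, n = 3 each), a log2 fold change of 3.64 ± 0.64 (edgeR adjusted p = 0.000952). Prss57 differed by 1.27 ± 0.26 (edgeR adjusted p = 0.00274) and Ms4a3 by 0.76 ± 0.17 (edgeR adjusted p = 0.00597), while Prtn3 gave 0.64 ± 0.24 and did not pass (edgeR adjusted p = 0.0806). Elane gave 0.19 ± 0.27 and Ctsg -0.12 ± 0.23 (edgeR adjusted p = 0.695 and 0.793). Without the doubted pair Mpo, Prss57 and Ms4a3 were still the 3 genes called, by 3.23 ± 0.42, 1.18 ± 0.26 and 0.72 ± 0.19 (edgeR adjusted p = 0.000122, 0.00707 and 0.0163).

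The order of the 6 groups by mean CPM differed between genes. For Mpo it ran WT_EtOH, WT_4OHT, FF_EtOH, FF_4OHT, Het_EtOH and Het_4OHT from high to low, and neighbours overlapped except FF_EtOH with FF_4OHT and FF_4OHT with Het_EtOH. For Prss57 the order was the same, and of neighbouring groups FF_4OHT and Het_EtOH alone did not overlap. For Elane the lowest group was FF_4OHT, at 2167 ± 74.0 CPM, and the highest was WT_EtOH, at 4361 ± 441.6 CPM (SD, n = 3 each), with every neighbouring pair overlapping. For Prtn3 the order was WT_EtOH, WT_4OHT, FF_EtOH, FF_4OHT, Het_4OHT and Het_EtOH, again with every neighbouring pair overlapping. For Ms4a3 FF_EtOH stood above WT_4OHT, and of neighbouring groups WT_4OHT with FF_4OHT and FF_4OHT with Het_EtOH did not overlap. For Ctsg the highest group was Het_4OHT, at 1832 ± 744.0 CPM, and the lowest was FF_4OHT, at 1238 ± 91.6 CPM (SD, n = 3 each), and every neighbouring pair overlapped. The share of all tested genes without overlap was not counted for FF_4OHT with Het_EtOH or for WT_4OHT with FF_4OHT. The gaps between these groups therefore describe the order only and are not set apart from other genes.

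**Figure D3:**
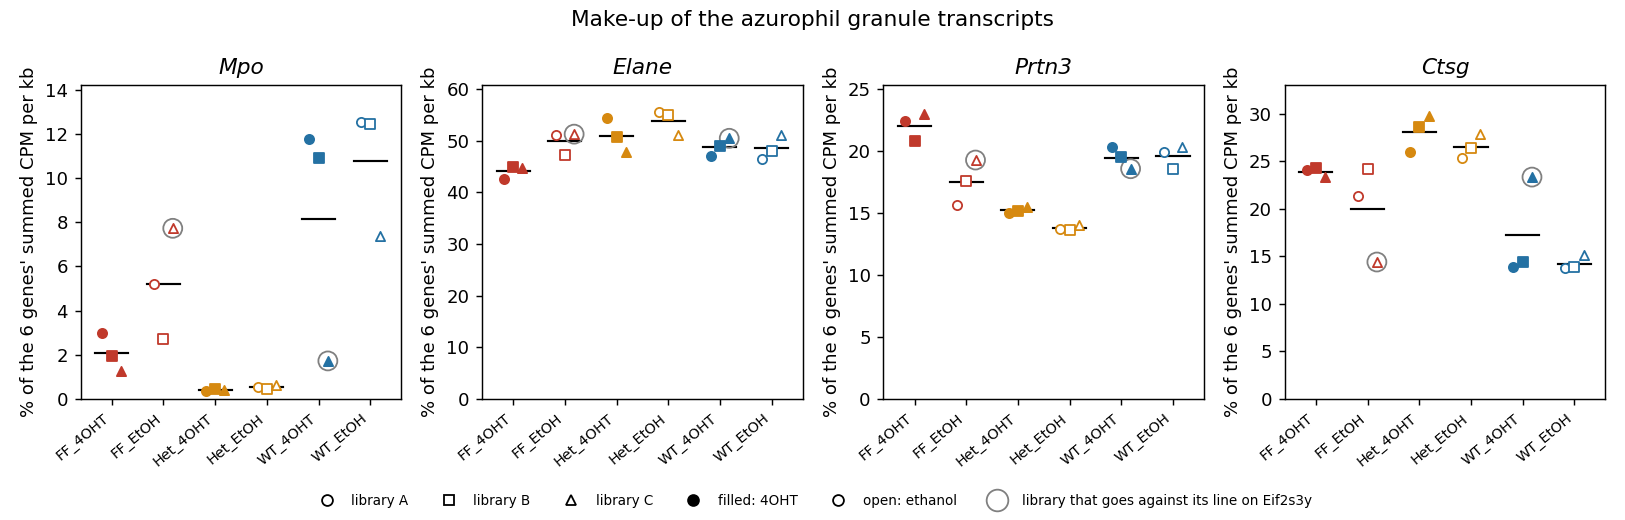
Share of each gene in the summed CPM per kilobase of the 6 azurophil granule genes, in percent, for the 4 most abundant genes, by library and group (symbols and grey rings as in the plot of levels, the line is the mean of 3). Ctsg makes up 13.8% to 15.1% in WT_EtOH libraries and 23.4% to 24.3% in FF_4OHT libraries, and in the Ctsg panel the ringed libraries, at 23.4% for the one labelled WT_4OHT C and 14.4% for the one labelled FF_EtOH C, lie with the other line.

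Scaled per kilobase, the make-up of the granule transcripts was compared between libraries, and by label the FF and WT libraries overlapped for Mpo and for Ctsg. Mpo made up 1.25% to 2.99% of the summed level of the 6 genes in FF_4OHT libraries, 2.73% to 7.72% in FF_EtOH, 0.337% to 0.470% in Het_4OHT, 0.460% to 0.638% in Het_EtOH, 1.72% to 11.8% in WT_4OHT and 7.37% to 12.6% in WT_EtOH. Ctsg made up 23.4% to 24.3% in FF_4OHT, 25.97% to 29.8% in Het_4OHT, 25.4% to 27.9% in Het_EtOH and 13.8% to 15.1% in WT_EtOH. The libraries that went against their line on Eif2s3y stood apart from it for Ctsg too. In the library labelled FF_EtOH C, Ctsg made up 14.4%, inside the WT_EtOH range, against 21.4% and 24.2% in FF_EtOH A and B. In the library labelled WT_4OHT C it made up 23.4%, against 13.9% and 14.5% in WT_4OHT A and B. Mpo per kilobase was 0.0471 ± 0.0215 of Elane in FF_4OHT cells and 0.1035 ± 0.0465 in FF_EtOH cells, and Prtn3 per kilobase was 0.5005 ± 0.0342 of Elane in FF_4OHT cells and 0.351 ± 0.0393 in FF_EtOH cells (SD, n = 3 each). The Prtn3 ratio lay between 0.462 and 0.526 in FF_4OHT libraries and between 0.306 and 0.376 in FF_EtOH libraries, with no overlap, with or without FF_EtOH C. The Mpo ratio was 0.0704, 0.0428 and 0.0281 in FF_4OHT A, B and C, against 0.102, 0.0577 and 0.151 in FF_EtOH A, B and C, so that FF_EtOH B lay below FF_4OHT A. These ratios were not tested.

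Across the 18 libraries, Mpo, Prss57, Ms4a3 and Prtn3 varied together and Ctsg varied apart from them. Pearson's r of log2 CPM was 0.966 for Mpo with Prss57, 0.935 for Mpo with Ms4a3, 0.910 for Prtn3 with Ms4a3 and 0.877 for Mpo with Prtn3. Elane gave 0.752 with its neighbour Prtn3, 0.551 with Mpo and 0.488 with Ctsg, and Ctsg gave -0.343 with Mpo. The 18 libraries share 3 genotypes, so these values describe mainly the level of each genotype and carry no p. Of 8510 other genes at 10 CPM or more on average, those most like each gene were Pxylp1 (0.975), Gpr160 and Mcu (0.971 each) for Mpo, Cldn15 (0.936), Vps25 (0.917) and Sumo3 (0.913) for Elane, and Nme6 (0.969) and Vasp (0.964) for Prtn3. For Ctsg they were Mt1 (0.932), Atp5sl (0.930) and Mif (0.908), for Prss57 Sun2 (0.968), Mpo (0.966) and Mgl2 (0.959), and for Ms4a3 Hmgb3 (0.966), Kdelr2 (0.962) and Srgn (0.952). Spearman's rho was between 0.822 and 0.973 for these pairs.

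**Figure D4:**
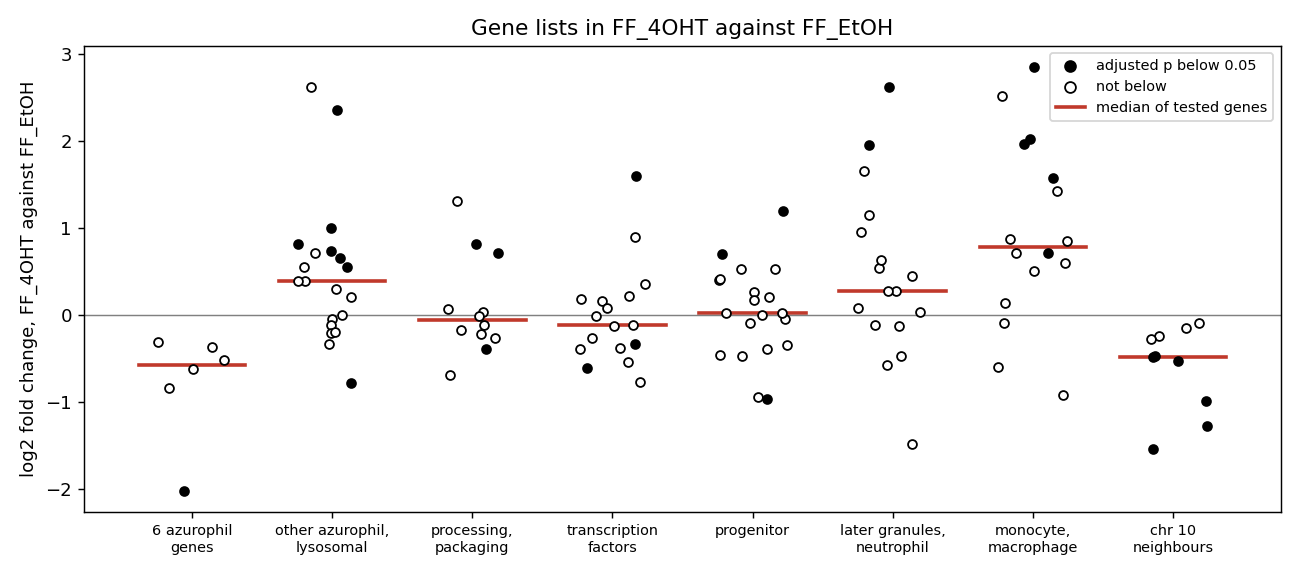
log2 fold change in FF_4OHT against FF_EtOH for the tested genes of 8 lists, each point 1 gene, filled where the edgeR adjusted p was below 0.05, with a red line at the list's median and a small sideways scatter that carries no meaning. The 6 azurophil granule genes are all below 0 and the 10 chromosome 10 neighbours are all below 0, while the other azurophil and lysosomal contents have a median of 0.39 and the monocyte and macrophage genes one of 0.78.

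Of 20 genes for other contents of the azurophil granule and the lysosome, 6 rose and 1 fell in FF_4OHT against FF_EtOH cells, beside 5.16% of all tested genes called higher and 8.29% called lower. Their median log2 difference was 0.39, with 14 above 0 and 6 below 0. Without FF_4OHT C 3 of them were called higher, and over the other 5 omissions of 1 library 5 or 6 were, while 0 or 1 was called lower (edgeR). Lyz2, a lysozyme, was at 1175 ± 187.6 CPM in FF_4OHT cells and 229.1 ± 45.5 CPM in FF_EtOH cells, a log2 fold change of 2.36 ± 0.32 (SD, n = 3 each; edgeR adjusted p = 0.000325). Hexa, a subunit of a lysosomal enzyme that breaks down glycans, rose by 0.55, and Ctsb, a lysosomal cysteine protease, by 0.74 (edgeR adjusted p = 0.00521 and 0.0081). Of 12 genes of granule protein processing and packaging, 2 rose and 1 fell. Ctsc, cathepsin C, which activates the granule proteases, rose by 0.71 ± 0.18 (edgeR adjusted p = 0.016), Furin rose by 0.81 ± 0.25 (edgeR adjusted p = 0.0424) and the chaperone gene Hspa5 fell by 0.39 on the log2 scale (edgeR adjusted p = 0.0353). Without the doubted pair of libraries the counts were 6 higher and 1 lower in the first list, and 1 higher and 0 lower in the second, where Ctsc was the gene called. Without 1 library at a time, 0 or 1 gene of the second list was called in each direction.

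Of 17 transcription factors of the granulocyte program, 1 rose and 2 fell in FF_4OHT against FF_EtOH cells, beside 5.16% of all tested genes called higher and 8.29% called lower. Without the doubted pair 1 was called higher and 1 lower, and without 1 library at a time 0 or 1 in each direction. Klf4, a monocyte factor, was at 10.9 ± 1.5 CPM in FF_4OHT cells and 3.59 ± 0.47 CPM in FF_EtOH cells (SD, n = 3 each), a log2 fold change of 1.60 ± 0.46 (edgeR adjusted p = 0.0306). Myc fell by 0.61 and Myb by 0.33 on the log2 scale (edgeR adjusted p = 0.0346 and 0.0453), and without the pair Myb was not called (edgeR adjusted p = 0.145). Of 20 progenitor genes, Csf2rb2 and Csf2rb, chains of the IL-3 and GM-CSF receptors, rose by 1.19 ± 0.15 and 0.70 ± 0.15, and Nkg7 fell by 0.96 on the log2 scale (edgeR adjusted p = 0.000204, 0.00551 and 0.0295). Of 17 genes of later granules and neutrophils, 2 rose and 0 fell, the collagenase Mmp8 by 2.63 ± 0.50 and Cybb, the catalytic subunit of the NADPH oxidase, by 1.96 ± 0.41 (edgeR adjusted p = 0.00311 and 0.00539). Without the pair 3 progenitor genes were called higher and 2 lower, and 2 later granule genes higher and 1 lower. No progenitor gene was called lower without FF_EtOH A, FF_EtOH B, FF_4OHT B or FF_4OHT C, each left out alone.

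Markers of another cell type moved in the same comparison. Of 16 tested monocyte and macrophage genes 5 rose and 0 fell, beside 5.16% of all tested genes called higher and 8.29% called lower, among them Ctss by 1.97 ± 0.36, Mpeg1 by 2.03 ± 0.39, Csf1r, the M-CSF receptor, by 1.57 ± 0.33, and Msr1 by 2.85 ± 0.64 (edgeR adjusted p = 0.00224, 0.0033, 0.00593 and 0.00811). The summed level of 19 such genes was 3348 to 4024 CPM in FF_4OHT libraries and 2758 to 3466 CPM in FF_EtOH libraries, with overlap, and C1qa had 0 counts in FF_4OHT and Ms4a7 had 0 counts in FF_EtOH. The same 5 monocyte genes were called without the doubted pair. Their part in the lower Mpo level was not tested. Mast cell and basophil genes summed to 17.1 to 33.8 CPM in FF_4OHT libraries and 24.4 to 30.1 CPM in FF_EtOH libraries, with 0 of 6 tested genes called (edgeR), and Prss34, Tpsab1 and Il4 had 0 counts in both groups. Eosinophil genes (0 of 2 tested), erythroid genes (0 of 2), lymphoid genes (0 of 3) and stromal genes (0 of 3) gave no call by edgeR. Vwf, von Willebrand factor, rose by 1.86 ± 0.47 as the only one of 5 megakaryocyte genes, and of 6 blood cell markers Csf2rb and Lyn rose, Lyn by 0.53 ± 0.12 (edgeR adjusted p = 0.016 and 0.0079). Of 26 list genes called in this comparison and chosen by the naming rule, 13 stayed called under each omission of 1 library and without the doubted pair. These include Lyz2, Hexa, Csf2rb2, Csf2rb, Mmp8, Cybb, Ctss, Mpeg1, Csf1r and Msr1. Of the others named so far, Ctsb and Lyn lost their calls without FF_4OHT C (edgeR adjusted p = 0.0518 and 0.0547). Vwf lost its call without FF_EtOH A, FF_EtOH B, FF_4OHT B or FF_4OHT C, with adjusted p up to 0.0790 (edgeR), and Ctsc, Furin, Hspa5, Klf4, Myc, Myb and Nkg7 each lost it in 3 to 6 of the 6 omissions (edgeR).

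Of 10 tested neighbours of Prss57, Prtn3 and Elane on chromosome 10, 6 fell in FF_4OHT against FF_EtOH cells, beside 8.29% of all tested genes called lower, while these 3 granule genes did not pass. All 10 had a log2 difference below 0, with a median of -0.48, beside -0.02 over all tested genes. R3hdm4 was at 71.3 ± 2.3 CPM in FF_4OHT cells and 103.3 ± 7.1 CPM in FF_EtOH cells (SD, n = 3 each), a log2 fold change of -0.53 ± 0.10 (edgeR adjusted p = 0.00266). Rnf126, a ubiquitin ligase gene, gave -0.99 ± 0.21, and Polrmt, the mitochondrial RNA polymerase gene, -0.48 ± 0.12 (edgeR adjusted p = 0.00596 and 0.0154). Cfd, which encodes complement factor D and lies next to Elane, gave -1.54 ± 0.47 but stood at 0.302 CPM in FF_4OHT cells and 0.882 CPM in FF_EtOH cells (edgeR adjusted p = 0.0399). Without the doubted pair of libraries 4 neighbours were called lower, 3 of them among the 6, and without 1 library at a time between 2 and 5 were, with 2 without FF_4OHT B or FF_4OHT C and 3 without FF_EtOH A. R3hdm4 and Rnf126 stayed called under each of these. Polrmt lost its call without FF_EtOH A, FF_4OHT B or FF_4OHT C, with adjusted p up to 0.0719, and Cfd in 5 of 6 omissions and without the pair, with adjusted p up to 0.146 (edgeR).

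**Figure D5:**
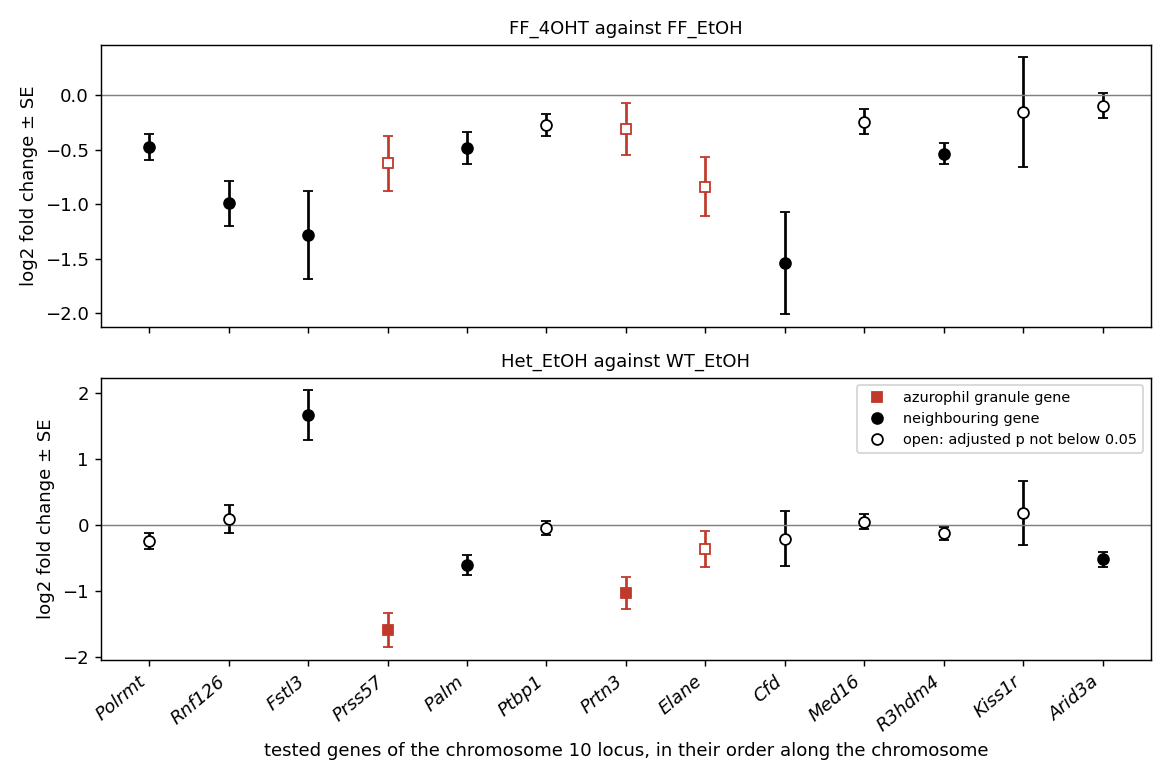
log2 fold change of the tested genes of the chromosome 10 locus in their order along the chromosome, with bars of 1 standard error (edgeR), for FF_4OHT against FF_EtOH above and Het_EtOH against WT_EtOH below. Red squares are the azurophil granule genes, black circles their neighbours, and filled symbols have an adjusted p below 0.05. All 13 genes are below 0 in the upper panel, while in the lower panel Prss57 is at -1.59 and its neighbour Fstl3 at 1.67.

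In Het_EtOH against WT_EtOH cells 1 of the 10 neighbours was higher and 2 were lower, beside 13.3% and 10.4% of all tested genes, with a median of -0.08, beside -0.03 over all tested genes. Fstl3, whose exons overlap those of Prss57, was higher by 1.67 ± 0.38 (edgeR adjusted p = 0.0043), at 5.3 ± 1.7 CPM in Het_EtOH cells and 1.66 ± 0.40 CPM in WT_EtOH cells (SD, n = 3 each), while Prss57 was lower. Palm and Arid3a were lower by -0.61 and -0.52 on the log2 scale (edgeR adjusted p = 0.00649 and 0.00319). The genes named for Het_EtOH against WT_EtOH here and further on were chosen after their values were seen.

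The transcription factors divided in Het_EtOH cells, with 4 of 17 higher and 6 lower than in WT_EtOH cells, beside 13.3% and 10.4% of all tested genes. Cebpa, which encodes C/EBPalpha, was at 213.3 ± 35.7 CPM in Het_EtOH cells and 95.2 ± 8.6 CPM in WT_EtOH cells (SD, n = 3 each), a log2 fold change of 1.16 ± 0.22 (edgeR adjusted p = 0.00102). Spi1, which encodes PU.1, was at 139.6 ± 6.6 CPM in Het_EtOH cells and 281.0 ± 52.7 CPM in WT_EtOH cells (SD, n = 3 each), a log2 fold change of -1.01 ± 0.19 (edgeR adjusted p = 0.000921). Cebpe, a factor of the later granules, gave -1.52 ± 0.31 (edgeR adjusted p = 0.00181), while Myb at -0.12, Runx1 at -0.04 and Gfi1 at -0.44 did not pass (edgeR adjusted p = 0.464, 0.922 and 0.108). Of the later granule genes 10 of 17 were lower and 0 were higher, with a median of -2.26 and with Camp at -6.50 ± 0.79 and Olfm4 at -6.27 ± 0.71 (edgeR adjusted p = 2.82e-05 and 1.48e-05). The 12 genes of granule protein processing, packaging and inhibitors also divided, with 3 higher and 4 lower. Srgn, the proteoglycan core that packs granule proteases, was lower by -1.27 ± 0.26 on the log2 scale (edgeR adjusted p = 0.00215). Serpinb1a, an inhibitor of elastase, proteinase 3 and cathepsin G, was lower by -1.09 ± 0.19 (edgeR adjusted p = 0.000524). The higher genes were Furin at 1.48 ± 0.25, Serpina3g at 1.45 ± 0.50 and Slpi at 0.67 ± 0.22 (edgeR adjusted p = 0.000537, 0.0464 and 0.0397). Serpina3g and the other lower genes, Ctsc and Calr, lost the call in 6 omissions of 1 library each, and Slpi in 5. Of 60 list genes called in this comparison, 36 stayed called without any 1 of the 6 libraries. These include Cebpa, Spi1, Cebpe, Camp, Olfm4, Srgn, Serpinb1a, Furin, Fstl3, Palm and Arid3a. Among the called factors, Cebpb and Myc lost the call in 3 omissions each, and Cebpd, Klf4 and Gata2 in 2 each.

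Markers of other cell types also differed between these lines. Of 16 tested monocyte and macrophage genes 1 was higher in Het_EtOH than in WT_EtOH cells and 3 were lower, beside 13.3% and 10.4% of all tested genes, with 11 of 16 below 0 and a median log2 difference of -0.50. The lower genes were Ms4a6c at -2.99 ± 0.72, Ms4a6d at -2.65 ± 0.67 and Fcgr1, a high-affinity IgG receptor, at -2.63 ± 0.49 (edgeR adjusted p = 0.00622, 0.00857 and 0.000979). The summed level of 19 such genes was 3035 to 4438 CPM in Het_EtOH libraries and 2748 to 2809 CPM in WT_EtOH libraries, with no overlap. F13a1, the coagulation factor XIII A chain, was the higher gene and part of that sum, at 887.5 ± 390.4 CPM in Het_EtOH cells and 67.8 ± 8.0 CPM in WT_EtOH cells (SD, n = 3 each). Of 3 tested stromal genes Pdgfrb was higher, at 16.1 ± 2.5 CPM in Het_EtOH cells and 0.0312 ± 0.0297 CPM in WT_EtOH cells (SD, n = 3 each). Lepr was lower by -1.80 ± 0.57 on the log2 scale (edgeR adjusted p = 0.031). Pdgfrb stayed called under each omission of 1 library. Lepr lost its call without WT_EtOH A, WT_EtOH B, Het_EtOH A or Het_EtOH C, with adjusted p up to 0.174 (edgeR). The part of these markers in the lower level of the granule genes was not tested.

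The relatives of Mpo and the family of Ms4a3 were scarce. The 4 other peroxidase genes listed summed to 0 CPM in FF_4OHT libraries, 0 to 0.0816 CPM in FF_EtOH libraries and at most 1.74 CPM in Het_EtOH libraries. The 13 other Ms4a genes summed to 45.6 to 59.3 CPM in FF_4OHT libraries and 16.5 to 35.2 CPM in FF_EtOH libraries, beside the 676.4 to 765.3 CPM and 958 to 1093 CPM of Ms4a3 itself. Of 6 tested, Ms4a4c rose by 2.21 ± 0.70 in FF_4OHT cells (edgeR adjusted p = 0.0477), a call lost under every omission of 1 library, with adjusted p between 0.0586 and 0.148. Over all tested genes 5.16% were called higher and 8.29% lower in FF_4OHT against FF_EtOH. The 14 other genes of the protease cluster around Ctsg summed to 6.62 to 16.5 CPM in FF_4OHT libraries and 5.47 to 12.2 CPM in FF_EtOH libraries, with 0 of 2 tested called by edgeR.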

How the data were processed

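The authors deposited raw read counts per gene symbol for 18 libraries. CASAVA 1.4, FastQC 0.11.7, HISAT2 2.0.5 and featureCounts 1.5.2 with the mm10 build are named in the submitters' processing notes, while the annotation, the strand setting and the treatment of reads with several matches were not given in the sources used here. Counts were analysed with edgeR 4.0.16 in R 4.3.3 (filterByExpr with a minimum count of 10, TMM scaling, robust quasi-likelihood fit with 1 mean per group over all 18 libraries) for 9 comparisons, with Benjamini-Hochberg adjustment over 12859 genes and a threshold of 0.05. The fit was tested on simulated data. Alternatives used DESeq2 1.42.0, limma 3.58.1, other scalings, no filter, library letters as a block and omitted libraries. No 2 libraries held identical counts. Libraries of the same letter correlated over 0.1 in every pair only in Het cells (r of 0.48, 0.70 and 0.40). There the block changed no call of the 6 genes in Het_4OHT against Het_EtOH. The 6 genes and the 18 gene lists were chosen with earlier results of these data known. From each list up to 4 called genes with the smallest adjusted p in FF_4OHT against FF_EtOH were named, and the 3 genes most like each of the 6 by Pearson's r (log2 CPM, prior count 2). Some genes that this rule names are not reported here. Sequences are from RefSeq, GRCm38.p6.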

Additional observations from a re-analysis of the deposited data

How the results depend on the processing

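The lower Mpo level in FF_4OHT cells and the 4 genes lower in Het_EtOH cells kept their direction under all 16 alternatives run for each. The 4 Het_EtOH calls held in 16 of 16, and the Mpo call in FF_4OHT cells in 10 of 16. The number of the 6 genes called in FF_4OHT against FF_EtOH, 1 as given above, was 3 with library-size scaling alone, 0 with no count filter (adjusted p = 0.0813 for Mpo, edgeR), 3 with the replicate block (Mpo, Elane and Ms4a3, with adjusted p = 0.0401, 0.0104 and 0.00954), 4 without the libraries labelled FF_EtOH C, WT_4OHT C and Het_4OHT A, 3 with DESeq2, 0 with limma voom (adjusted p = 0.0545 for Mpo), 3 with the compared groups alone, and 0 to 2 with 1 library left out. Calls over all genes moved as well, from 1729 of 12859. They were 2763 of 12859 with the block, 2275 of 12859 with DESeq2 and 1554 of 12859 with limma voom. Library-size scaling gave 1621 of 12859, no filter 1447 of 17748 and the compared groups alone 1984 of 12030. Without the libraries labelled FF_EtOH C, WT_4OHT C and Het_4OHT A, 2798 of 12985 were called. The letters did not pair the FF libraries by the rule used (r of 0.17, 0.18 and 0.067), but these include the doubted FF_EtOH C. Whether the block there pairs related libraries is therefore not known. In FF_EtOH against WT_EtOH the number of the 6 genes called was 1 without the libraries labelled WT_4OHT C and FF_EtOH C and 1 without Het_4OHT A as well. Over all genes 614 of 13041 and 981 of 12985 were called in these fits. With the block FF_EtOH against Het_EtOH had 4 of the 6 genes called, against 3, the added gene being Prtn3 (edgeR adjusted p = 0.0209). Prtn3 was called there in 3 of 16 alternatives, the block among them. Beyond this count and that of FF_4OHT against FF_EtOH, the block moved no count of the 6 genes. Ctsg in Het_EtOH against WT_EtOH was called, as higher, in 2 of 16 alternatives, without the libraries labelled WT_4OHT C, FF_EtOH C and Het_4OHT A and with the compared groups alone (adjusted p = 0.021 and 0.0425, edgeR).

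All reversals were of log2 differences that no fit called. Without the libraries labelled WT_4OHT C, FF_EtOH C and Het_4OHT A, Prtn3 and Ctsg in Het_4OHT against Het_EtOH were at -0.31 and -0.32, Mpo, Elane and Prtn3 in WT_4OHT against WT_EtOH at 0.11, 0.0061 and 0.0435, Prtn3 and Prss57 in the FF minus Het response at 0.12 and 0.19, Elane, Prtn3 and Ms4a3 in the Het minus WT response at -0.60, -0.35 and -0.22, and Ctsg in FF_EtOH against Het_EtOH at 0.0285. Without the libraries labelled WT_4OHT C and FF_EtOH C, Mpo, Elane and Prtn3 in WT_4OHT against WT_EtOH were at 0.1001, 5e-04 and 0.0377, Elane and Ctsg in the Het minus WT response at -0.0452 and 0.061, and Ctsg in FF_EtOH against Het_EtOH at 0.0401. With WT_EtOH C left out too, Elane and Prtn3 in WT_4OHT against WT_EtOH were at 0.0911 and 0.12, Elane in the Het minus WT response at -0.17 and Ctsg in FF_EtOH against Het_EtOH at 0.0204. In the Het minus WT response, Elane was at -0.0393 with library-size scaling alone, -0.094 with the replicate block, -0.0898 with limma voom and -0.0103 with the compared groups alone, and Mpo at 0.34 with the replicate block and 0.38 with limma voom. The cause was not tested.

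With 1 library left out, the ranges that crossed 0 were, in Het_4OHT against Het_EtOH, -0.59 to 0.18 for Elane, -0.25 to 0.14 for Ms4a3, -0.31 to 0.23 for Ctsg and -0.30 to 0.33 for Prtn3, and, in WT_4OHT against WT_EtOH, -0.17 to 0.0279 for Elane, -0.18 to 0.0378 for Prtn3 and -0.79 to 0.10 for Mpo. They were -0.49 to 0.0919 for Prss57 in the FF minus Het response and -0.30 to 0.04 for Ctsg in FF_EtOH against Het_EtOH. In the Het minus WT response they were -0.56 to 0.33 for Mpo, -0.53 to 0.24 for Elane, -0.49 to 0.0612 for Ctsg, -0.10 to 0.28 for Ms4a3, -0.23 to 0.40 for Prtn3 and -0.52 to 0.038 for Prss57.

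Library-size scaling moved the median of all genes in Het_EtOH against WT_EtOH to 0.10, against -0.03 with TMM, and in FF_EtOH against Het_EtOH to -0.11, against 0.02. The 6 genes kept their sign under it in both. Counts over all genes moved more. In FF_4OHT against FF_EtOH they ran from 1447 to 2798 over the alternatives and from 700 to 1293 with 1 library left out, against 1729. In FF_EtOH against WT_EtOH they ran from 0 to 981, against 0, in the FF minus WT response from 72 to 643, against 296, and in the FF minus Het response from 57 to 755, against 321.

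Of the 3 genes named as most like each of the 6, 2 or 3 stayed among the first 3 without the libraries labelled WT_4OHT C and FF_EtOH C, and 0 to 2 did by Spearman's rho. The omissions of libraries for the gene lists were chosen after seeing the data.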
